A study of Mus musculus with 6 samples.

Results

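The genes described here are the Notch receptors, their ligand Jag1, the nuclear partner Rbpj and the Hes and Hey target genes, in primary mouse bone marrow stromal cells with and without a conditional deletion of Rras2. Members were the rows of the deposited gene table whose symbol was Notch1, Notch2, Notch3, Jag1, Dll1, Hes1, Hey1, Heyl, Nrarp or Rbpj. The table held 8 of these 10 among its 12830 genes, and Dll1 and Nrarp are not analysed here. The control group, called FF, came from Rras2f/f mice, and the conditional knockout group, called cKO, from Prx1;Rras2f/f mice, so both groups carried the floxed allele. The mice were 8 weeks old and the cells had 2 days of osteogenic induction. There were 3 libraries in each group. Prx1 regulatory sequence is used to drive deletion in limb bud mesenchyme, and blood cells lie outside that lineage. Whether libraries within a group stem from different animals is not stated in the labels, so the p-values cover the spread between these samples and that spread may be technical.

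In Notch signalling a membrane ligand on 1 cell binds a Notch receptor on its neighbour. The receptor is then cut by ADAM proteases and gamma-secretase, and its intracellular domain enters the nucleus, where it joins RBPJ and Mastermind-like proteins on DNA. The best known genes switched on in this way are the Hes and Hey repressors. In bone marrow stroma, Notch activity is known for holding mesenchymal progenitors back from osteoblast differentiation, and BMP signals also induce Hey1 and Hes1.

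The libraries held between 31934714 and 37561452 counts over the listed genes. Rras2 itself had 49.7, 50.1 and 44.7 CPM in FF and 26.7, 29.0 and 26.8 CPM in cKO, where CPM is counts divided by the TMM-scaled library size, on the usual CPM scale. Markers of the labelled stromal cells were measured for 10 of 10 genes, and their summed level was 13523 to 14320 CPM in FF and 11604 to 12602 CPM in cKO. That sum includes Col1a1, a collagen gene that is on the osteoblast list too, and which fell by 0.59 on the log2 scale. Without it, a choice made after the values were seen, the stroma sum was 5577 to 5757 CPM in FF and 6604 to 7019 CPM in cKO. In the same list Cxcl12 and Lepr rose, each by 0.47 on the log2 scale. Cxcl12 was the largest part of the sum without Col1a1, with a mean of 3483 CPM in FF and 4838 CPM in cKO. Of the 9 genes in that sum 5 had negative and 4 positive log2 fold changes, with a median of -0.037. The cultures also held macrophage transcripts, with 10 of 10 markers measured and a summed level of 6950 to 7207 CPM in FF and 7327 to 7565 CPM in cKO. Of these 10, Tyrobp and Mrc1 rose and Cd14 fell. Of 4 measured B and plasma cell markers Ighm, Igkc and Jchain rose, by 0.73, 0.78 and 0.99, with a summed level of 181 to 198 CPM in FF and 295 to 357 CPM in cKO. Of 7 adipocyte markers Adipoq and Cd36 rose, by 0.95 and 0.39. Of the 11 marker calls, 4 ended when 1 library was left out. Mrc1, Cd14 and Ighm ended without FF replicate 1, 2 or 3 or cKO replicate 2, Mrc1 also without cKO replicate 3, and Tyrobp when replicate 2 of either group or replicate 3 of cKO was left out (highest edgeR adjusted p = 0.208, 0.0924, 0.1000 and 0.0976 for Mrc1, Cd14, Ighm and Tyrobp). The part of these cells in the Notch values was not tested.

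Across all genes, edgeR's quasi-likelihood test called 4.84% at a Benjamini-Hochberg adjusted p below 0.05, with 2.74% lower and 2.10% higher in cKO.

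Of the 8 measured members, Hes1 fell in cKO and the other 7 did not pass the test. An unadjusted p below 0.05 was reached by 5 of the 8, and by 17.3% of all genes, and 6 of the 8 had negative log2 fold changes, as did 49.8% of all genes. Hey1, Notch3 and Heyl had negative log2 fold changes of -1.37, -0.47 and -0.34, and Rbpj had a positive one of 0.16. Notch1, Notch2 and Jag1 had differences near 0. The median log2 fold change was -0.22 over the 8 members and 0.00058 over all genes tested. The libraries of the groups did not overlap for 4 of the 8 (Hes1, Hey1, Heyl and Rbpj), where 22.5% of all genes showed no overlap. For 3 of these the cKO libraries were the lower ones, which held for 11.2% of all genes. With other tests the shares called over all genes were 6.61% in the authors' deposited table and in DESeq2, 5.04% in limma-voom, 5.21% with the replicate number as a block and 9.09% in edgeR without cKO replicate 1. The deposited log2 fold changes and adjusted p-values nearly equalled those of DESeq2 for each member, so they do not count as separate tests. These are bulk cultures, so fewer cells that express a gene and less of its RNA per cell cannot be told apart.

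**Figure D1:**
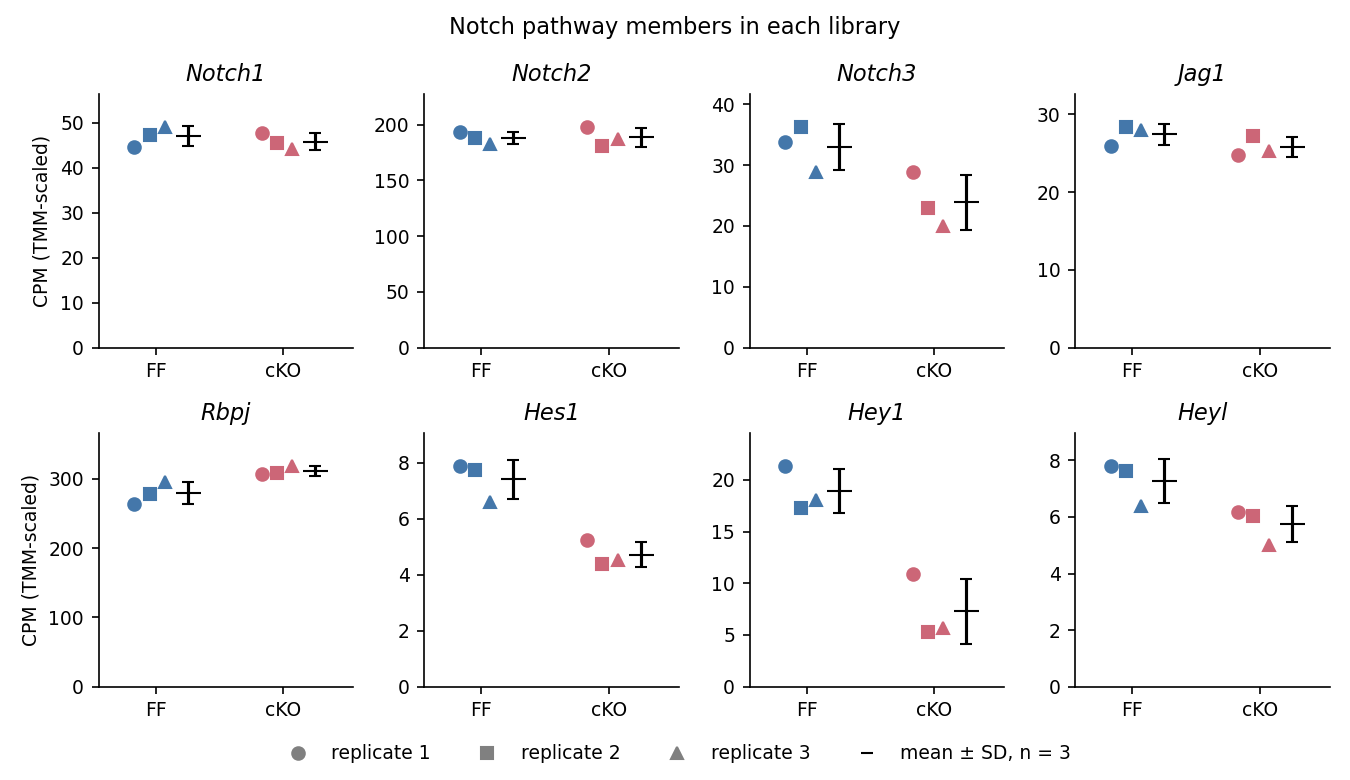
TMM-scaled CPM of each measured member in the 3 FF and 3 cKO libraries, with marker shapes for the replicate number and bars for mean ± SD (n = 3); each vertical axis starts at 0. For Hes1, Hey1 and Heyl the highest cKO point lies under the lowest FF point, with Hey1 at 10.9 CPM in cKO replicate 1 and 5.33 and 5.65 CPM in the other two.

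The deposited FPKM values, which scale by gene length and library size, allow levels to be set beside each other across genes. In FF, Rbpj had the highest level at 47.2 ± 3.35 FPKM, followed by Notch2 at 16.4 ± 0.265 FPKM and Hey1 at 7.14 ± 0.681 FPKM (SD, n = 3). Hes1, Notch1, Jag1 and Notch3 followed at 4.61, 4.54, 4.47 and 3.78 FPKM. Within these 4, the library ranges of each neighbouring pair overlapped. Heyl had the lowest level at 1.46 ± 0.143 FPKM (SD, n = 3). In cKO the order differed in the middle. Rbpj and Notch2 again led at 52.1 and 16.3 FPKM, and Notch1 and Jag1 came next at 4.38 and 4.17 FPKM with overlapping ranges. Hes1, Hey1 and Notch3 lay at 2.91, 2.73 and 2.72 FPKM with overlapping ranges, and Heyl at 1.147 FPKM. Hey1 ranked 3 of the 8 in FF and 6 in cKO.

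**Figure D2:**
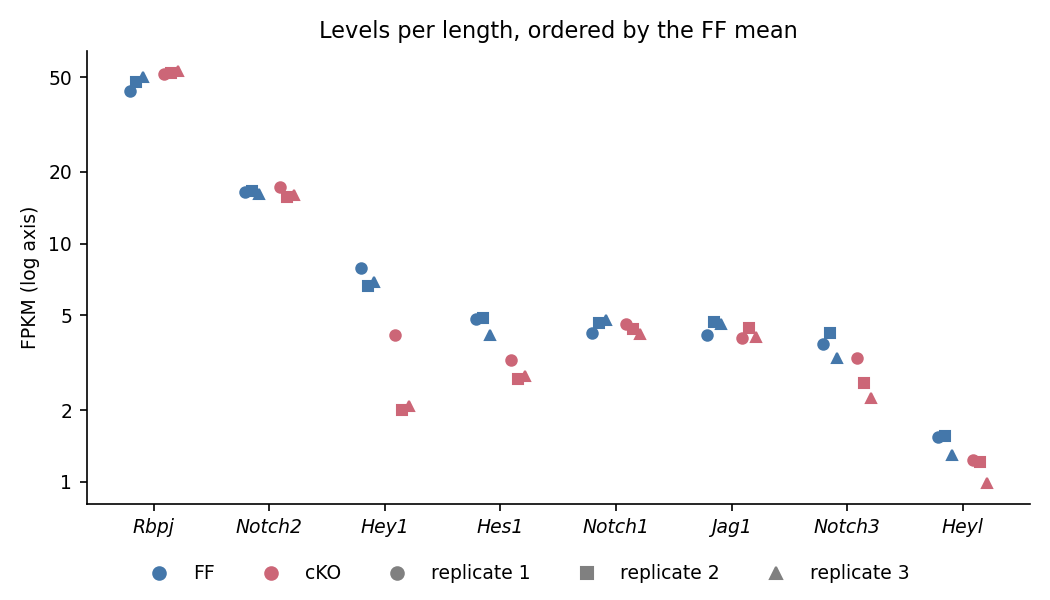
Deposited FPKM values of the 8 members on a log axis, ordered by the FF mean, with 1 point per library. Rbpj (43.6 to 52.9 FPKM) and Notch2 (15.7 to 17.2 FPKM) lie above all other members in every library, and Hey1 moves from 6.62 to 7.91 FPKM in FF to 2.00 to 4.12 FPKM in cKO.

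Notch2 encodes the receptor with the highest transcript level here. In mm10 its gene spans chromosome 3, positions 98013527 to 98150361, plus strand. It had 193, 188 and 183 CPM in FF and 198, 181 and 187 CPM in cKO. The groups overlapped and their means were almost equal. The log2 fold change was 0.0047 with a 95% interval from -0.094 to 0.10, which covers at most a 1.07-fold change in either direction. Notch1, the receptor best known from T cell and endothelial development, spans chromosome 2, positions 26457903 to 26516663, minus strand. It had 44.6, 47.4 and 49.2 CPM in FF and 47.8, 45.5 and 44.1 CPM in cKO, again with overlap. Its log2 fold change of -0.04 had an interval from -0.17 to 0.09 (edgeR adjusted p = 0.815).

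Notch3, a receptor known for its role in vascular smooth muscle and pericytes and itself induced by Notch signals, spans chromosome 17, positions 32120820 to 32166852, minus strand. It had 33.9, 36.3 and 28.8 CPM in FF and 28.8, 22.9 and 19.99 CPM in cKO. FF replicate 3 and cKO replicate 1 met at the same level, and the other 2 cKO libraries lay below all FF libraries. The log2 fold change was -0.47 (standard error 0.15), with an interval from -0.82 to -0.11 (edgeR adjusted p = 0.171). Without cKO replicate 1 it was -0.62 and passed (edgeR adjusted p = 0.00215). It also passed in DESeq2 (adjusted p = 0.00305), with a nearly equal value in the authors' deposited table (adjusted p = 0.00305). With any other single library left out, Notch3 did not pass in edgeR (adjusted p from 0.104 to 0.397). An antisense gene, Gm17276, overlaps Notch3 in GENCODE M21, and whether the authors counted by strand is not given in the sources used here. Genes on the opposite strand overlap Notch1 and Rbpj as well, so the same limit holds for those members.

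Receptor make-up was described by the share of each receptor in the summed FPKM of the 3 receptors. Notch3 made up 15.3 ± 1.47% in FF and 11.5 ± 1.58% in cKO (SD, n = 3). Every cKO share was below every FF share, by a small margin between FF replicate 3 (13.7%) and cKO replicate 1 (13.1%). No test was made on the receptor shares. Notch2 made up 66.4 ± 1.11% in FF and 69.7 ± 1.44% in cKO, and Notch1 18.4 ± 1.302% and 18.7 ± 0.495% (SD, n = 3). These shares sum to a whole, so a lower share of one receptor raises the others. The summed receptor level was 24.7 ± 0.646 FPKM in FF and 23.4 ± 1.497 FPKM in cKO (SD, n = 3), a difference smaller than the SD in cKO.

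Jag1 encodes a Serrate-type ligand that stromal and osteoblast cells present to blood stem cells. The gene spans chromosome 2, positions 137081456 to 137116644, minus strand. It had 25.9, 28.4 and 28.0 CPM in FF and 24.8, 27.2 and 25.3 CPM in cKO. The groups overlapped, and the log2 fold change of -0.09 had an interval from -0.24 to 0.06 (edgeR adjusted p = 0.581).

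Rbpj encodes the DNA-binding protein through which all Notch receptors act, and which represses targets when no receptor domain is bound. It spans chromosome 5, positions 53466152 to 53657362, plus strand. It had 263, 278 and 295 CPM in FF and 307, 308 and 319 CPM in cKO. All cKO libraries were above all FF libraries, by a small margin between FF replicate 3 and cKO replicate 1. The difference was 1.11-fold with an interval from 1.04-fold to 1.20-fold and did not pass the edgeR test (adjusted p = 0.0834). It passed in DESeq2 (adjusted p = 0.0435), with a nearly equal value in the authors' deposited table (adjusted p = 0.0436). It also passed in edgeR without cKO replicate 1 (adjusted p = 0.0391). With any other single library left out, Rbpj did not pass in edgeR (adjusted p from 0.0630 to 0.327).

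Upstream sequences are shown for the receptor with the largest difference and for Rbpj, since the members include genes whose proteins bind the motifs searched for. RefSeq windows of GRCm38.p6 matched 5 of the 8 members. Hes1, Hey1 and Heyl were not matched. Each line gives the 250 bases before the start site, 5′ to 3′ on the gene's strand, with capitals for matches to TGGGAA, the RBPJ core, or CACNAG, the N-box bound by Hes proteins, on both strands. The Notch3 start lies 38 bases from the GENCODE gene start. The first of 2 RefSeq starts is shown for Rbpj, and it lies inside the GENCODE gene, 124194 bases from its first base. The Notch3 window is chr17:32166891-32167140 on the minus strand and the Rbpj window is chr5:53590096-53590345 on the plus strand.
Notch3: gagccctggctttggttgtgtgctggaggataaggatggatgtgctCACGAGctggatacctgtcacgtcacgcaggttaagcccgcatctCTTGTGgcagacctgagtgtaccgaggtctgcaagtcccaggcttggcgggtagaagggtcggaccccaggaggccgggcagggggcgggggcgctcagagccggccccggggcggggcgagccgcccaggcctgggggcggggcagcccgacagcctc
Rbpj: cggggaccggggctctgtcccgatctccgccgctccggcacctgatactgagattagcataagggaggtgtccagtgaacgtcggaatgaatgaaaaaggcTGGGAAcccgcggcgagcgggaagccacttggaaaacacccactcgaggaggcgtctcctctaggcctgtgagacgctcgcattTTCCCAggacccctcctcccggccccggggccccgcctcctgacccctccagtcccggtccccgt

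The Notch3 window held 2 N-boxes, which began 204 and 159 bases before the start, and 0 RBPJ cores. The Rbpj window held 2 RBPJ cores, which began 149 and 65 bases before the start, and 0 N-boxes. Of 32851 windows of this length, 8.18% held at least 2 N-boxes and 2.77% at least 2 RBPJ cores. The window of the second Rbpj start, which overlaps the first, held 1 RBPJ core, and 21.6% of all windows held at least 1. A longer RBPJ site, GTGGGAA, had 0 matches in either Rbpj window and was held by 5.42% of all windows. A single N-box was matched in the Notch1 and the Notch2 window and 0 motifs in the Jag1 window, and 36.7% of all windows held at least 1 N-box. The Notch1 start used lies inside the GENCODE gene, 12841 bases from its first base. These are matches of letters and say nothing of binding.

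Hes1 encodes a basic helix-loop-helix repressor that is the classical direct target of Notch. Its gene spans chromosome 16, positions 30064384 to 30067796, plus strand. It had 273, 293 and 212 counts in FF and 184, 152 and 165 counts in cKO, or 7.90, 7.74 and 6.61 CPM against 5.24, 4.38 and 4.54 CPM. Every cKO library was below every FF library. Hes1 was 1.57-fold lower in cKO, a log2 fold change of -0.65 (standard error 0.14; edgeR adjusted p = 0.0160). The authors' deposited table gave a log2 fold change of -0.65 with an adjusted p of 0.00287. The call ended without FF replicate 1 or 2 (adjusted p = 0.0714 and 0.0911) and without cKO replicate 2 or 3 (0.0758 and 0.0583), with log2 fold changes from -0.62 to -0.60.

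Hey1, a repressor of the related Hairy/E(spl)-YRPW family, had the largest difference of the 8 members. It spans chromosome 3, positions 8663359 to 8667256, minus strand. It had 21.4, 17.3 and 18.1 CPM in FF and 10.9, 5.33 and 5.65 CPM in cKO. All cKO libraries were below all FF libraries, and cKO replicate 1 lay between the other 2 cKO libraries and FF. The log2 fold change was -1.37 (standard error 0.33), with an interval from -2.25 to -0.49, and it did not pass (edgeR adjusted p = 0.129). Without cKO replicate 1 it was -1.79 and passed (adjusted p = 2.56e-07). Hey1 also passed in limma-voom (adjusted p = 0.0312) and DESeq2 (adjusted p = 0.00261), with a nearly equal value in the authors' deposited table (adjusted p = 0.00262). With any other single library left out, Hey1 did not pass in edgeR (adjusted p from 0.235 to 0.364).

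Heyl, a Hey family gene best known from vascular smooth muscle, spans chromosome 4, positions 123233556 to 123249875, plus strand. It had 7.81, 7.63 and 6.39 CPM in FF and 6.19, 6.05 and 5.01 CPM in cKO. The groups did not overlap, although FF replicate 3 and cKO replicate 1 were close. The log2 fold change was -0.34 with an interval from -0.64 to -0.04 (edgeR adjusted p = 0.222), and it did not pass under any of the 14 alternative settings.

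Among the 3 Hes and Hey members, Hey1 made up 55.4%, 50.7% and 55.9% of their summed FPKM in FF and 47.8%, 33.7% and 35.7% in cKO. Hes1 made up 34.9 ± 2.15% in FF and 43.7 ± 5.15% in cKO, and Heyl 11.1 ± 0.725% and 17.3 ± 3.03% (SD, n = 3). The summed level of these 3 genes was 14.3, 13.1 and 12.3 FPKM in FF and 8.61, 5.92 and 5.85 FPKM in cKO. Hes6, a family gene that is no member, had 13.7 ± 1.11 FPKM in FF and 13.6 ± 0.335 FPKM in cKO (SD, n = 3), with a log2 fold change of -0.0019. With Hes6 in the sum, a choice made after the values were seen, the total was 27.0 ± 0.413 FPKM in FF and 20.4 ± 1.26 FPKM in cKO, and Hey1 made up 26.5 ± 2.80% and 13.2 ± 4.90% of it (SD, n = 3). No test was made on these sums or shares.

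**Figure D3:**
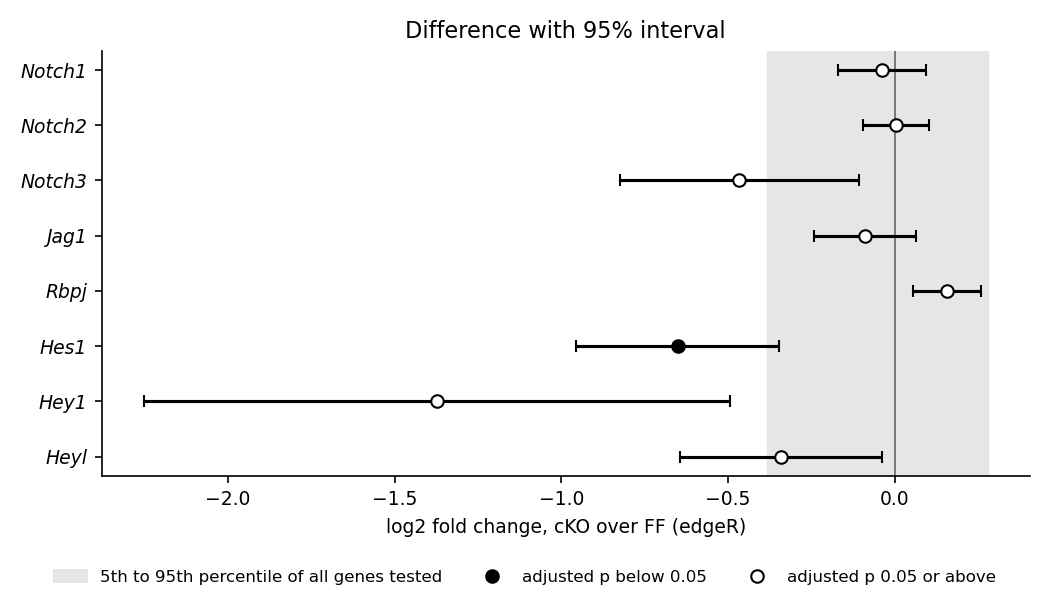
Log2 fold change of cKO over FF for each member with its 95% interval from the edgeR fit; filled points passed at an adjusted p below 0.05, and the grey band spans the 5th to 95th percentile of all 12830 genes (-0.38 to 0.28). Hes1, Hey1 and Notch3 lie left of the band, and Notch1, Notch2 and Jag1 lie near 0 with narrow intervals.

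The rest of the pathway was read from lists of receptors, ligands, processing enzymes and nuclear factors. Of 69 such genes 59 were measured, 1 rose and 0 fell in edgeR, beside 4.84% called over all genes. An unadjusted edgeR p below 0.05 was reached by 6 of the 59, with 3 lower and 3 higher, beside 17.3% of all genes. DESeq2 and limma-voom called 2 and 1 of the 59, beside 6.61% and 5.04% of all genes. The median log2 fold change of the 59 was -0.019. The gene that rose was Bhlhe41, a repressor of the DEC family with Hes-like structure, known from circadian control and not as a Notch target. It had 40.6, 39.2 and 41.7 CPM in FF and 49.2, 46.3 and 49.5 CPM in cKO, without overlap and 0.26 higher on the log2 scale (edgeR adjusted p = 0.0241). Leaving out FF replicate 1, FF replicate 2 or cKO replicate 3 ended the call (adjusted p = 0.0859, 0.119 and 0.0840).

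Among the other receptors and ligands 4 of 7 were measured, all at low levels, and 0 passed in edgeR, DESeq2 or limma-voom, with Notch4 alone under an unadjusted p of 0.05. Notch4, a receptor of endothelial cells, had 4.89, 4.83 and 3.77 CPM in FF and 4.13, 2.91 and 3.08 CPM in cKO. Dlk2, a ligand-like protein without the usual receptor-binding domain, had a log2 fold change of -0.02. All 4 measured genes of this list had negative log2 fold changes, from -0.44 to -0.02, with a median of -0.31. Of the glycosyltransferases that modify Notch, 0 of 5 passed. Lfng, the Lunatic Fringe gene, which tunes ligand choice, had 88.96, 87.7 and 86.5 CPM in FF and 85.1, 85.5 and 86.9 CPM in cKO, with overlap. Poglut1, which adds O-glucose to the receptors, had a log2 fold change of -0.02.

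The genes that cut the receptor had 0 calls of 10, with log2 fold changes from -0.10 to 0.22. The ends of that range, Adam10 and Aph1c, named after their values were seen, were the 2 with an unadjusted edgeR p below 0.05. Adam17, a surface protease, had 272, 260 and 274 CPM in FF and 271, 248 and 276 CPM in cKO. Psenen, a gamma-secretase subunit, had a log2 fold change of 0.13. Of the ubiquitin and endocytosis genes 15 of 16 were measured and 0 passed in edgeR, while DESeq2 called 1, Dtx4, a gene named after its values were seen. The endocytic adaptor Epn1 and the ubiquitin ligase gene Neurl3 had log2 fold changes of 0.0019 and 0.07.

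Nuclear coactivators had 0 calls of 8, with Ep300, a histone acetyltransferase, at -0.04 and Snw1 at -0.02 on the log2 scale. Nuclear corepressors had 0 calls of 14, with Ctbp1 at -0.08 and Hdac1, a histone deacetylase, at 0.04. Without cKO replicate 1, the pathway count went from 1 to 5 of the 59 genes, beside 9.09% called over all genes. Of these 5, 4 were lower and 1 was higher.

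BMP immediate targets were read beside Hes1 and Hey1, because BMP signals induce those 2 genes as well. Of 7 measured genes 5 fell and 0 rose, against 2.74% lower over all genes, and the median log2 fold change was -0.73. Id1, which blocks basic helix-loop-helix factors, had 12.6, 12.8 and 11.8 CPM in FF and 7.95, 6.71 and 5.92 CPM in cKO (edgeR adjusted p = 0.000917). Id3 and Id2, of the same family, fell by 0.78 and 0.40 on the log2 scale. Bambi, a BMP pseudoreceptor, and Smad7, an inhibitory Smad, fell by 0.73 and 0.43. The groups did not overlap for any of these 5 genes, where 11.2% of all genes had every cKO library below FF. The calls and this separation rest on the same 6 libraries, so they are not separate support. Smad6, the inhibitory Smad of the BMP branch, named after its values were seen, had 123, 115 and 108 CPM in FF and 87.5, 64.9 and 54.7 CPM in cKO, which missed the threshold (edgeR adjusted p = 0.170). In Smad6, as in Hey1, cKO replicate 1 was the cKO library nearest to the FF mean, which held for 40.6% of all genes tested. The part of BMP signals in the Hes1 and Hey1 values was not tested.

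**Figure D4:**
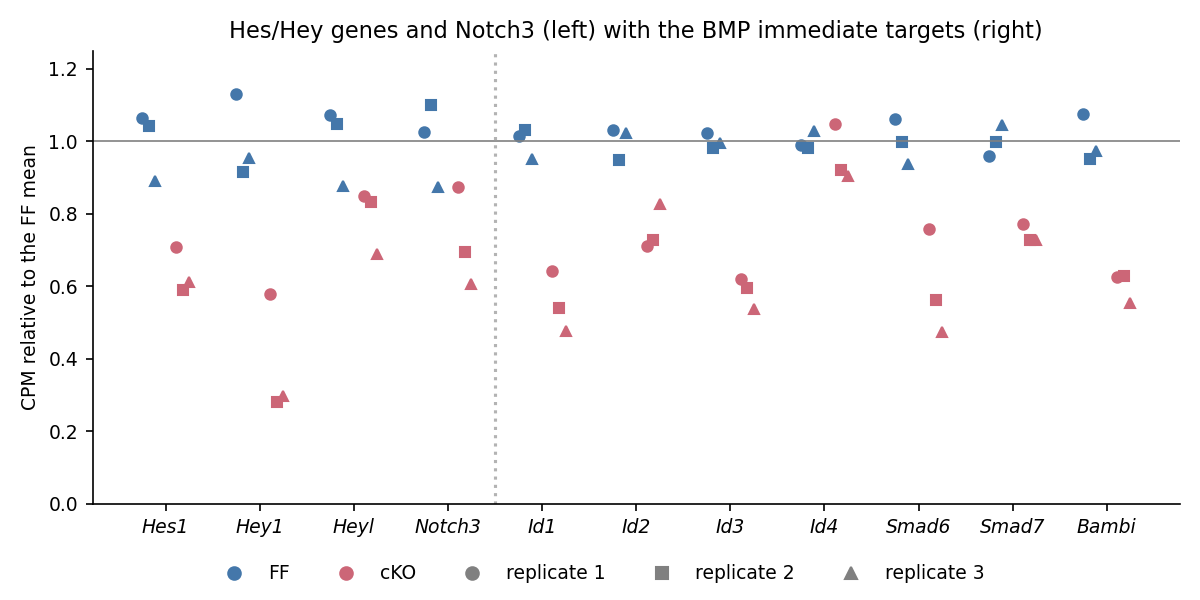
CPM of each library divided by the FF mean of the gene, for Hes1, Hey1, Heyl and Notch3 (left) and the 7 BMP immediate targets (right); blue is FF, red is cKO and shapes give the replicate number. Hey1 has the lowest ratios, 0.58, 0.28 and 0.30 in cKO, while the cKO ratios of Id3 lie between 0.54 and 0.62.

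Osteoblast genes gave a further reading of the same libraries. Of 10 measured 3 fell and 0 rose in edgeR, against 2.74% lower over all genes, with a median log2 fold change of -0.58. The log2 fold changes ran from -1.87 to 0.17, with 9 negative and 1 positive. DESeq2 called 7 of the 10, beside 6.61% of all genes. Runx2, the transcription factor that sets the lineage, fell by 0.25, a call that needed FF replicate 3, cKO replicate 2 and cKO replicate 3 (adjusted p = 0.0740, 0.0538 and 0.0632 without each), and the type I collagen genes Col1a1 and Col1a2 fell by 0.59 and 0.44. The cKO library nearest to the FF mean was replicate 1 for 6 of the 8 Notch members, 5 of the 7 BMP targets and 9 of the 10 osteoblast genes. Over all genes tested this was so for 40.6%. Its part in the Notch values was not tested beyond leaving it out.

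Markers of vessel cells matter for Notch3, Heyl and Notch4, which such cells express. Of 12 endothelial markers 10 were measured and 0 passed in edgeR, DESeq2 or limma-voom, 3 had an unadjusted edgeR p below 0.05, and their summed level was 49.99 to 66.04 CPM in FF and 46.5 to 57.4 CPM in cKO. Their median log2 fold change was -0.35. Tek and Sox17 are not analysed here. Of 10 mural markers 7 were measured and 0 passed in edgeR, while 1, Cspg4, passed in DESeq2 and had an unadjusted edgeR p below 0.05. The mural sum was 1684 to 1904 CPM in FF and 1673 to 1967 CPM in cKO. The median log2 fold change was -0.14, and the 7 values ran from -0.65 for Cspg4 to 0.07 for Des. Most of the mural sum was Acta2, which activated stromal cells also express. Rgs5, a more defining pericyte gene, had 7.12, 7.95 and 6.33 CPM in FF and 6.33, 6.40 and 4.85 CPM in cKO. Myh11, Mcam and Acta2 had log2 fold changes of -0.14, -0.12 and 0.05. Cspg4, the NG2 gene, had 26.1, 28.5 and 28.6 CPM in FF and 22.5, 17.6 and 12.9 CPM in cKO, without overlap (edgeR adjusted p = 0.190). These mural genes were picked after their values were seen. The part of vessel cells in the Notch3 and Heyl values was not tested.

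Genes with the most similar pattern were sought for the 2 members of smallest p, Hes1 and Rbpj, by Pearson's r of log2 CPM over the 6 libraries among 11024 other genes of at least 5 CPM. The closest to Hes1 were Bicc1, 2900026A02Rik and Impdh1, with r of 0.996, 0.991 and 0.990. The closest to Rbpj were Galc, Zfp704 and Plekhh2, with r of 0.996, 0.993 and 0.990. Among the members, Hes1 had r = 0.96 with Hey1, 0.92 with Notch3 and 0.89 with Heyl, and -0.92 with Rbpj. It had 0.29, 0.26 and 0.41 with Notch1, Notch2 and Jag1. These values describe 6 libraries that share the difference between the groups, and the best matches were the highest of 11024.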

How the data were processed

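Total RNA of 6 libraries was sequenced from a stranded mRNA kit, per the labels' protocols, and mm10 is the genome build named in the submitters' processing notes. Neither aligner nor counting tool is given in the sources used here. The authors deposited raw counts and FPKM per gene and library, plus, per the file headers, their own log2 fold changes with raw and adjusted p-values. The test on counts was that of edgeR 4.0.16, run in R 4.3.3 (TMM, filterByExpr, robust quasi-likelihood F test, 3 FF against 3 cKO, no covariates), with Benjamini-Hochberg adjustment over all 12830 genes. The filter removed 0 genes, and the lowest mean count in the table was 22.3. FPKM served to compare levels between genes and for sums and shares over genes, given per group without a test. Standard errors are the log2 fold change divided by the square root of F. Alternatives were other scalings and filters, DESeq2 1.42.0, limma-voom (limma 3.58.1), a replicate block and each library left out. Gene coordinates are from GENCODE M21, which matched 12611 identifiers, and 2 list genes were matched by identifier. Members and lists were chosen with earlier results of these data known. Named genes were all members, then every called gene of the pathway, BMP and osteoblast lists, or the 2 of largest mean FPKM where a list had 0 called. Other genes named are said to be picked after their values were seen, or are called marker genes. No pair of libraries of a group agreed within sampling noise (chi-square per degree of freedom at least 7.77).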

Additional observations from a re-analysis of the deposited data

How the results depend on the processing

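Other scalings and filters changed no call of a member. Dropping the filter, 1 of the 14 alternatives, repeats the reported fit, because the filter removed 0 genes. DESeq2 called 4 members (Hes1, Hey1, Notch3 and Rbpj), limma-voom 2 (Hes1 and Hey1) and edgeR with the replicate number as a block 4. For Hey1 the log2 fold changes by DESeq2, limma-voom and the block were -1.37, -1.45 and -1.44. They were -0.47 in DESeq2 and -0.47 with the block for Notch3, and 0.16 in DESeq2 and 0.16 with the block for Rbpj. Same-numbered libraries did not deviate together (r = -0.036, 0.091 and -0.099), so the number is not shown to pair them. DESeq2 called 2 of the 59 pathway genes and 13 of the 17 BMP and osteoblast genes, where edgeR called 1 and 8. With 1 library left out, members called ranged from 0 to 4, pathway genes from 0 to 5, BMP and osteoblast genes from 7 to 14 and all genes from 268 to 1166, against 621. The count of 4 members and 1166 genes came without cKO replicate 1, and 0 members passed without FF replicate 1, FF replicate 2, cKO replicate 2 or cKO replicate 3. Log2 fold changes then ranged from -0.73 to -0.60 for Hes1, -1.79 to -1.19 for Hey1, -0.62 to -0.35 for Notch3, 0.12 to 0.20 for Rbpj and -0.032 to 0.034 for Notch2, which turned to -0.014 without FF replicate 3 and -0.032 without cKO replicate 1. In alternatives chosen after seeing the data, Hey1's share of the Hes and Hey FPKM went from 54.0% to 26.5% in FF and from 39.1% to 13.2% in cKO with Hes6 added, and the stroma marker sum in cKO minus FF went from -1596 to 1136 CPM without Col1a1. The cause of the shifts with left-out libraries was not tested. Hes1 and Heyl had the lowest mean counts of the members, 213 and 229 per library, so counting error weighs most on them.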
